A study of Homo sapiens with 16 samples.

Results

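In all, 9 genes of the MHC class I pathway were followed across 16 RNA-seq libraries of HMC3, an established cell line derived from human microglia. They were chosen by symbol from the gene list of the count table: HLA-B, HLA-C, HLA-E and HLA-F, B2M, TAP1, TAP2, TAPBP and PSMB8, which makes 9 of 25370 genes. All 9 passed the filter on low counts, which kept 16004 genes.

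The libraries came from 8 conditions with 2 libraries each. Serum-starved cells in medium without serum or phenol red received vehicle, the estrogen E2 (17β-estradiol) at 0.1 nM, or 1 of 3 drugs at 400 nM for a day. The drugs were ketamine, (2R,6R)-HNK and its enantiomer (2S,6S)-HNK, the last 2 being hydroxynorketamines that the body makes from ketamine. Each drug was also given together with E2. All conditions shared 1 cell line; it is immortalized and grown alone, without other brain cells. Whether both libraries of each condition were grown as separate cultures is not in the labels, so each test measures only the spread between these libraries, which may be technical. Total RNA of a culture was sequenced, and a change in RNA per cell could not be told apart from a change in the share of cells that express a gene.

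The libraries held 55300614 to 81646165 counts. Of 11 microglial and macrophage markers, 10 averaged under 1 CPM (a gene's count relative to the library's TMM-adjusted total); CD68, a lysosomal protein that other cells also make, averaged 20.5 CPM. Among the defining genes, AIF1, CX3CR1, P2RY12, TMEM119, PTPRC, SPI1, ITGAM and TYROBP had 0 to 7 counts in any library, whereas CSF1R (24 to 89 counts) and TREM2 (25 to 79 counts) passed the filter at a low level. The microglial label was thus not borne out by most of these markers. Of 7 fibroblast and mesenchymal markers, 4 were tested, led by COL1A1, a collagen chain, at 4550 CPM on average, and the other 3 were near absent (COL3A1 0 to 6 counts, DCN 0 to 12, LUM 0 to 4). The summed level of that list was 4750 to 4760 CPM with vehicle and ranged from 4260 to 6470 CPM in the treated libraries. The summed level of 3 astrocyte markers, most of it ALDH1L1, was 3.2 to 3.34 CPM with vehicle, 7.54 to 8.91 with (2S,6S)-HNK, 8.41 to 8.73 with E2 plus (2R,6R)-HNK and 7.08 to 7.23 with E2 plus (2S,6S)-HNK, while AQP4 had 0 counts in all libraries. The part of either list in the results on the 9 genes was not tested.

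Class I molecules present peptides from inside the cell to CD8 T cells and natural killer cells. The proteasome cuts proteins, and PSMB8 is a catalytic subunit that replaces a standard subunit in the immunoproteasome. TAP1 and TAP2 together form the transporter that carries peptides into the endoplasmic reticulum, and TAPBP (tapasin) holds an empty class I molecule next to it. A class I molecule is a heavy chain, such as HLA-B, HLA-C, HLA-E or HLA-F, bound to the light chain B2M (beta-2-microglobulin). Interferons raise most of these genes, in part through NLRC5 and IRF1.

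By the GRCh37 annotation, B2M lies on chr15:45003556-45011049 (plus strand) and the other members lie in the MHC of chromosome 6. HLA-F, on the plus strand, starts at position 29690552 and TAPBP, on the minus strand, ends at position 33282061. TAP2 (chr6:32789610-32806516), PSMB8 (chr6:32808494-32812456) and TAP1 (chr6:32812986-32821593) follow each other on the minus strand. HLA-B (chr6:31321649-31334844) and HLA-C (chr6:31236526-31239907) are also on the minus strand, and HLA-E (chr6:30457286-30461971) is on the plus strand. Heavy chain genes are near-identical over long stretches and differ between people, and reads were aligned to 1 reference haplotype, so their counts are uncertain where reads fit more than 1 of them. Exons of HLA-F overlapped those of the antisense gene HLA-F-AS1 by 535 bases, and those of PSMB8 overlapped the antisense gene PSMB9 by 139 bases. Among further overlaps, exons of the antisense gene PSMB8-AS1 shared 672 bases with TAP1 and 602 with PSMB8. PSMB8-AS1 was not among the genes counted. Whether the counting used strand was not given in the sources used here, so reads from these stretches could not be assigned to 1 of the genes.

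Upstream sequences are shown for HLA-B and HLA-C, whose levels followed each other, for TAP1, and for B2M, whose level did not follow theirs. Promoter sequences from RefSeq (GRCh38.p14) were at hand for 8 of the 9 members (10 transcription starts), and the 250 bases before each start matched the GRCh37 genome at exactly 1 place. The letter patterns searched on both strands were GAAANNGAAA (ISRE-type, as bound by interferon regulatory factors), TTCNNNGAA (STAT-type), GGGNNNNCCC (kB-type), CCAAT (the CCAAT box) and TGACG (the core of a cAMP response element). Matches are in capitals, in the direction of transcription. The windows are chr6:31324957-31325206 (minus strand) for HLA-B, chr6:31239870-31240119 (minus strand) for HLA-C, chr6:32821482-32821731 (minus strand) for the outermost start of TAP1 and chr15:45003465-45003714 (plus strand) for B2M, all GRCh37.
HLA-B: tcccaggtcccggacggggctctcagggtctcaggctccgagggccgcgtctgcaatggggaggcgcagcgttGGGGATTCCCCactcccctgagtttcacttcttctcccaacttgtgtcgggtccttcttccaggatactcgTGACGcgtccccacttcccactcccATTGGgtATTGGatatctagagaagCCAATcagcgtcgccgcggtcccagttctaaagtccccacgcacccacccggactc
HLA-C: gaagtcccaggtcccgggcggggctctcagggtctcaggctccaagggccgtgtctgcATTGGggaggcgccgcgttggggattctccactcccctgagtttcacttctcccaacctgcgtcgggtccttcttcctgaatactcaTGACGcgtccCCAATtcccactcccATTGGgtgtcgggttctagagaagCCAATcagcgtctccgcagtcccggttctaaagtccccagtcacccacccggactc
TAP1: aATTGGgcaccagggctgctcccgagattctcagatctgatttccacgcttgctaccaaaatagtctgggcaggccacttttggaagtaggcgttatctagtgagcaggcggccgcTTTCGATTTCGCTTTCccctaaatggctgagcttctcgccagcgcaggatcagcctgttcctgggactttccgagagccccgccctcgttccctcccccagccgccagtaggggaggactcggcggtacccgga
B2M: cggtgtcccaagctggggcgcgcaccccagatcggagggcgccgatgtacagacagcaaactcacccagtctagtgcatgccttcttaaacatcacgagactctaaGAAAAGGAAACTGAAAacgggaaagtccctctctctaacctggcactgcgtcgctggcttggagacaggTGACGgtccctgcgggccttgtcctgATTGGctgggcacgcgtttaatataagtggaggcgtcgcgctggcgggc

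ISRE-type matches lay before 5 members: 2 each, sharing 4 bases, in B2M, TAP1 and TAPBP, and 1 each in HLA-F and TAP2. Of all 35116 promoter windows of this length, 3.0% held one. HLA-B and HLA-C had no exact ISRE-type match. They held 3 and 4 CCAAT matches (32.0% of all windows held at least 1) and 1 TGACG match each (21.2%). HLA-B also held the kB-type pattern, as 2 matches that share 9 bases (16.1% of all windows). The windows of PSMB8 held 1 TGACG match at its outer start and 1 STAT-type match at its inner start (6.6%), and the inner start of TAP1, not printed here, also had 1 STAT-type match. A match is a description of the letters and not evidence of binding. Only exact letters were searched, so a window without a match can still hold a variant of an element. The windows of HLA-B and HLA-C both hold tttcacttct, which is close to TTTCNNTTTC, the ISRE-type pattern on the other strand, without matching it.

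Levels between genes were compared per kilobase of the canonical transcript. With vehicle, B2M stood highest at 235 CPM per kilobase, followed by HLA-B at 67.5, HLA-E at 61.3, HLA-C at 33.9, TAPBP at 27, PSMB8 at 11.7, TAP2 at 11.3 and TAP1 at 6.97. HLA-F stood at 0.245 CPM per kilobase, with 13 and 31 counts in the vehicle libraries and at most 80 in any library. Light chain RNA was thus the most abundant of the 9 in untreated cells, and the peptide transporter subunits were among the lowest.

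The first comparison set each treatment against vehicle. HLA-B, HLA-C, HLA-E, TAP1, TAPBP and PSMB8, 6 of the 9, were higher than vehicle with each of the 7 treatments, as were 13.4% of all genes tested. Every treated library of these 6 lay above both vehicle libraries, as in 17.8% of all genes. After the correction for GC content and length, TAP1, TAPBP and PSMB8 were higher with all 7 (4.89% of all genes), HLA-B and HLA-C lost the call with E2, and HLA-E lost it with E2 and with (2R,6R)-HNK. B2M, the partner of every heavy chain, fell with 4 treatments, rose with 1 and did not pass the test with 2. TAP2 rose with E2 and with E2 plus ketamine, and HLA-F rose with 5 treatments. After the correction TAP2 was higher with every treatment except E2 plus (2S,6S)-HNK (adjusted p = 0.0582). With GC content from the canonical transcript it was higher with E2, (2R,6R)-HNK and E2 plus ketamine only. As counted, most rises were below 2-fold, and 9 values over the 7 treatments reached it.

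The count of members that passed an adjusted p of 0.05 (edgeR quasi-likelihood test, Benjamini-Hochberg over all 16004 genes in each comparison) is read against a high background. With E2, 7 members rose and 1 fell, against 29.9% and 32.7% of all genes tested. After the correction for GC content and length, 4 were called with E2 (TAP1, TAP2, TAPBP and PSMB8), all higher, where 15.6% of all genes were higher and 22.4% lower. With GC content from the canonical transcript 6 were higher and HLA-B was lower (14.8% and 21.8% of all genes). With ketamine, 7 rose and none fell (26.8% and 32.5% of all genes). With (2R,6R)-HNK, 6 rose and 1 fell (31.7% and 34.9%). With (2S,6S)-HNK, 7 rose and none fell (32.1% and 35.8%). These are the treatments with a single agent.

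With E2 plus ketamine, 8 rose and 1 fell, where 34.3% of all genes rose and 37.4% fell. E2 plus (2R,6R)-HNK gave 7 and 1 (33.4% and 36.3%), and E2 plus (2S,6S)-HNK gave 8 and none (24% and 35.7%). After the GC and length correction 8, 9 and 8 rose and none fell, where 24.2%, 25.9% and 22.4% of all genes rose. With GC content from the canonical transcript 8 rose with each and none fell (23.8%, 25.8% and 22.4% of all genes rose). As counted, the members' median log2 fold change was 0.38 with E2, 0.52 with ketamine and 0.49 with (2R,6R)-HNK, whereas (2S,6S)-HNK gave 0.77. It was 0.69 with E2 plus ketamine, 0.83 with E2 plus (2R,6R)-HNK and 0.47 with E2 plus (2S,6S)-HNK. Over all genes tested the median stayed between -0.064 and -0.003 with these treatments. All 7 comparisons share the same vehicle libraries.

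**Figure D1:**
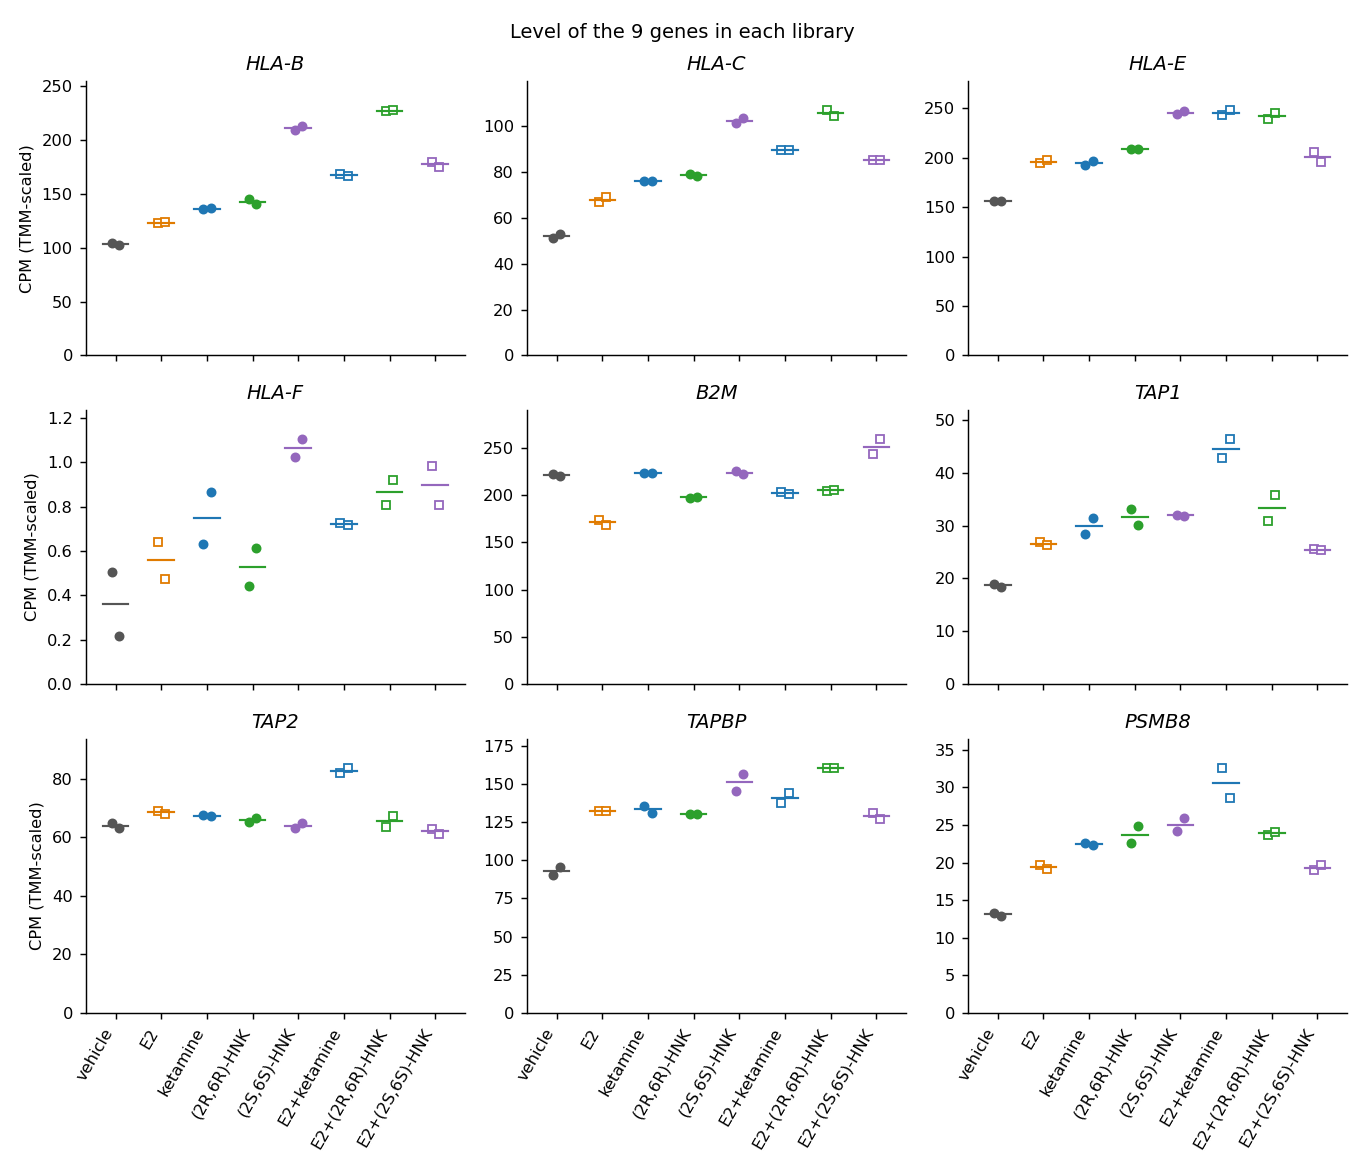
Each panel shows 1 gene, with TMM-scaled CPM on the y axis and the 8 conditions on the x axis; points are single libraries, open squares mark treatments with E2, and bars are means of 2 libraries. HLA-B spans 103 to 228 CPM and is highest with E2 plus (2R,6R)-HNK, TAP1 spans 18.4 to 46.3 CPM and is highest with E2 plus ketamine, and B2M is lowest with E2.

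Base composition moved with these differences. Across the 15353 genes with a known GC content, genes richer in GC had higher log2 fold changes against vehicle, with a Spearman rho for exon GC of 0.44 to 0.77 over the 7 treatments (across genes, which are not independent replicates). The median gene tested had 48.7% GC. Over all exons HLA-C (60.9%), HLA-E (57%), HLA-B and TAPBP (54.2% each) and TAP1 (53.7%) lay above it. PSMB8 (50.5%) and HLA-F (51.5%) lay near it, and TAP2 (45.2%) and B2M (41.4%) below it. The canonical transcripts gave other values. These were 58.9% for HLA-B, 57.8% for HLA-F, 57.4% for TAP1, 57.1% for TAPBP and 54.9% for PSMB8. HLA-C stood at 60.1%, HLA-E at 55.1%, TAP2 at 48.9% and B2M at 39.1%. Each library was therefore also corrected for its trend with GC content and exon length, and corrected log2 values are given beside many of the counted ones. Such a correction also removes real differences in RNA that run along GC content, and the design cannot tell them apart. After it the members' median log2 fold change was 0.28 with E2, 0.30 with ketamine and 0.28 with (2R,6R)-HNK, whereas (2S,6S)-HNK gave 0.50. With E2 plus ketamine it was 0.43, with E2 plus (2R,6R)-HNK 0.53 and with E2 plus (2S,6S)-HNK 0.41.

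**Figure D2:**
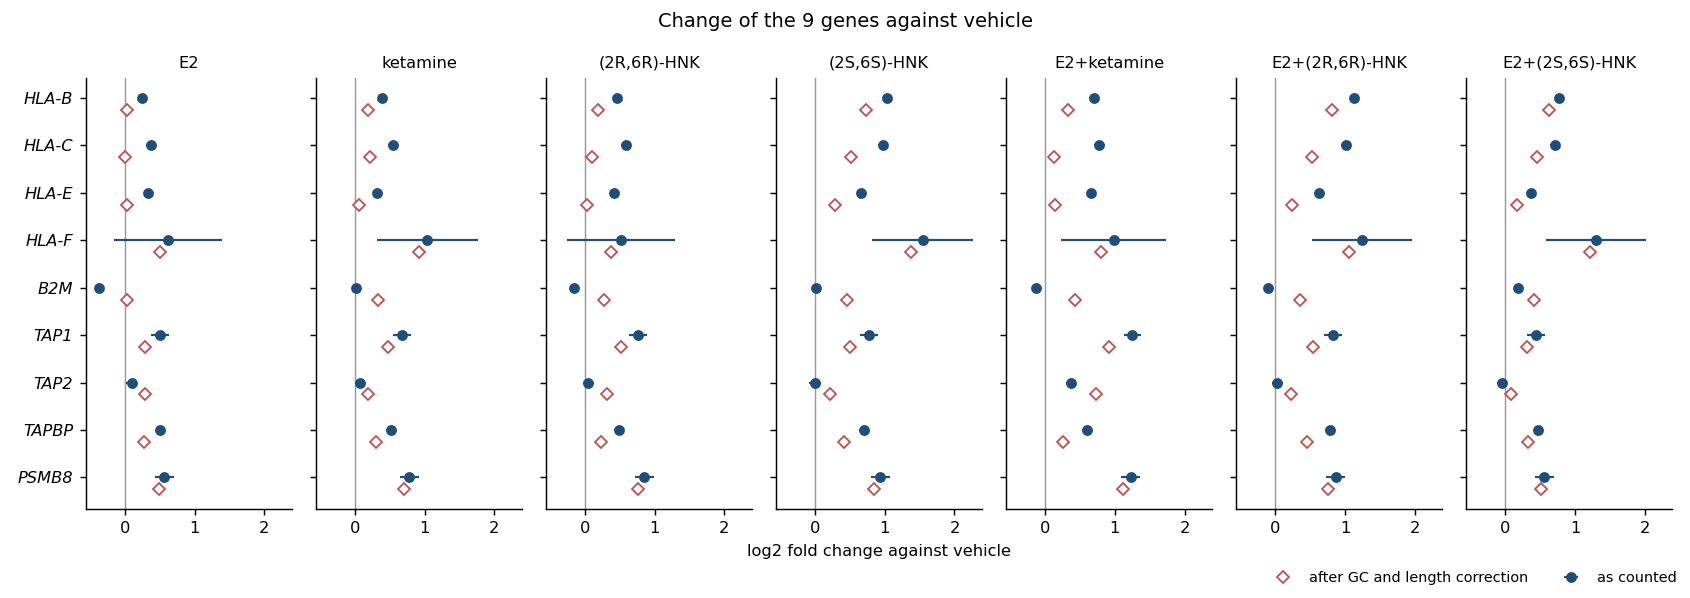
Each panel is 1 treatment; the x axis is the log2 fold change against vehicle and the y axis lists the 9 genes. Blue points are the counted values with 95% intervals from the fit, and red diamonds are values after the GC and length correction: B2M moves from near or below 0 to above it in 6 panels and rises further with E2 plus (2S,6S)-HNK, and the heavy chains move toward 0 with E2.

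HLA-B, a classical heavy chain, was measured at 104.5 and 102.8 CPM with vehicle. It stood at 123 and 123.9 CPM with E2, at 135.6 and 136.5 with ketamine, at 144.9 and 140.5 with (2R,6R)-HNK and at 209 and 213.6 with (2S,6S)-HNK. With E2 it stood at 168.8 and 166.4 CPM beside ketamine, at 226.9 and 227.6 beside (2R,6R)-HNK and at 179.6 and 175.4 beside (2S,6S)-HNK. No neighbours in the order of the 8 conditions overlapped. The largest rise was 2.19-fold with E2 plus (2R,6R)-HNK (log2 1.13 ± 0.03 SE), followed by 2.04-fold with (2S,6S)-HNK. After the GC and length correction these were 0.81 and 0.74 on the log2 scale. The log2 rise of 0.25 with E2 alone became 0.02 (adjusted p = 0.517), and it became -0.08 (adjusted p = 0.0161) when GC content was taken from the canonical transcript. By the canonical transcript the rise of 0.46 with (2R,6R)-HNK became 0.03 (adjusted p = 0.435), whereas by all exons it was 0.19 and passed the test. The annotated exons of HLA-B overlap those of the pseudogene DHFRP2 by 1421 bases.

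HLA-C, the other classical heavy chain measured, had 51.21 and 53.2 CPM with vehicle. Its highest values were 106.9 and 104.3 CPM with E2 plus (2R,6R)-HNK and 101.2 and 103.4 CPM with (2S,6S)-HNK, so HLA-C stood highest in the same conditions as HLA-B. The log2 rises were 1.02 ± 0.04 and 0.97 ± 0.04 (SE), and 0.53 and 0.52 after the correction. With E2 alone its log2 fold change was 0.38, and -0.01 after the correction (adjusted p = 0.925). Counts of HLA-B per count of HLA-C stayed between 1.78 and 2.18 in the 16 libraries.

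HLA-E, a nonclassical heavy chain read by natural killer cell receptors, had 156.4 and 156.1 CPM with vehicle and 193.2 to 248 CPM in the treated libraries. It was highest with (2S,6S)-HNK (244 and 247.5 CPM), E2 plus ketamine (242.9 and 248) and E2 plus (2R,6R)-HNK (239.7 and 245.2), and these 3 conditions overlapped each other. Its log2 rise was 0.65 ± 0.03 (SE) with (2S,6S)-HNK, and 0.29 after the correction. The corrected values were 0.24 with E2 plus (2R,6R)-HNK and 0.14 with E2 plus ketamine, which was below the 0.17 with E2 plus (2S,6S)-HNK. By the canonical transcript E2 plus ketamine stood at 0.28, above the 0.22 with E2 plus (2S,6S)-HNK. With E2 and with (2R,6R)-HNK the corrected values were 0.03 and 0.03, and neither passed the test (adjusted p = 0.417 and 0.276). By the canonical transcript both did, at 0.09 (adjusted p = 0.000873) and 0.13 (adjusted p = 2.27e-06).

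HLA-F, a nonclassical heavy chain, was scarce. It had 31 and 13 counts with vehicle and reached 56 and 65 counts with (2S,6S)-HNK, which is a 2.91-fold rise (log2 1.54 ± 0.36 SE, adjusted p = 0.000165). That log2 value was 1.06 without vehicle replicate 2 and 2.27 without vehicle replicate 1. After the correction the log2 values of HLA-F ran from 0.37 with (2R,6R)-HNK to 1.38 with (2S,6S)-HNK. The rise of 0.98 with E2 plus ketamine became 0.80 and missed the threshold (adjusted p = 0.0669). The vehicle libraries, at 0.5067 and 0.2182 CPM, overlapped those with E2 and those with (2R,6R)-HNK. Without the vehicle library of replicate 2, which holds the 13 counts, HLA-F no longer passed the test with ketamine (log2 0.56, adjusted p = 0.253), E2 plus ketamine (0.51, adjusted p = 0.287), E2 plus (2R,6R)-HNK (0.76, adjusted p = 0.092) or E2 plus (2S,6S)-HNK (0.82, adjusted p = 0.0795). The call with ketamine was also lost without its replicate 2 (0.79, adjusted p = 0.118). Without replicate 1 of vehicle it did pass with E2 (1.35, adjusted p = 0.0195) and with (2R,6R)-HNK (1.24, adjusted p = 0.0303).

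B2M, the light chain, went another way. It had 222.8 and 219.8 CPM with vehicle and fell to 174.1 and 168.4 CPM with E2 (log2 -0.37 ± 0.03 SE), its lowest level of the 8 conditions. It also fell with (2R,6R)-HNK (197.1 and 198.3 CPM), E2 plus ketamine (203.2 and 201.2) and E2 plus (2R,6R)-HNK (204.5 and 205.7), by 0.16, 0.13 and 0.11 on the log2 scale. With ketamine its log2 fold change was 0.01 (95% interval -0.04 to 0.07) and with (2S,6S)-HNK it was 0.02 (-0.04 to 0.07). Its highest level was with E2 plus (2S,6S)-HNK, at 243.1 and 259.2 CPM.

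The direction of B2M depended on the correction for GC content. After it, B2M was higher than vehicle with 6 treatments, by 0.28 to 0.46 on the log2 scale, and stood at 0.03 with E2 (adjusted p = 0.267). With GC content from the canonical transcript it was higher with all 7, by 0.16 to 0.57. The 4 falls therefore did not hold under either setting, and the 2 values near 0 became rises. With upper-quartile scaling the fall with E2 plus (2R,6R)-HNK was 0.03 and missed the threshold (adjusted p = 0.38).

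Counts of HLA-B per count of B2M show the change in balance within each library. The ratio was 0.469 and 0.468 with vehicle, and 0.607 and 0.612 with ketamine. It was 0.707 and 0.736 with E2, and 0.735 and 0.708 with (2R,6R)-HNK. With (2S,6S)-HNK the libraries gave 0.927 and 0.961. In the presence of E2 it was 0.831 and 0.827 beside ketamine, 0.739 and 0.677 beside (2S,6S)-HNK and 1.11 in both libraries beside (2R,6R)-HNK. Every treated library lay above both vehicle libraries in these uncorrected counts. A ratio shows unequal change of both genes, and the 2 genes differ in GC content. After the GC and length correction the log2 change of HLA-B was no larger than that of B2M with 4 treatments: 0.02 against 0.03 with E2, 0.18 against 0.34 with ketamine, 0.19 against 0.28 with (2R,6R)-HNK and 0.33 against 0.43 with E2 plus ketamine. It stayed larger with (2S,6S)-HNK (0.74 against 0.46), E2 plus (2R,6R)-HNK (0.81 against 0.36) and E2 plus (2S,6S)-HNK (0.62 against 0.41). The difference between the genes was not tested.

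**Figure D3:**
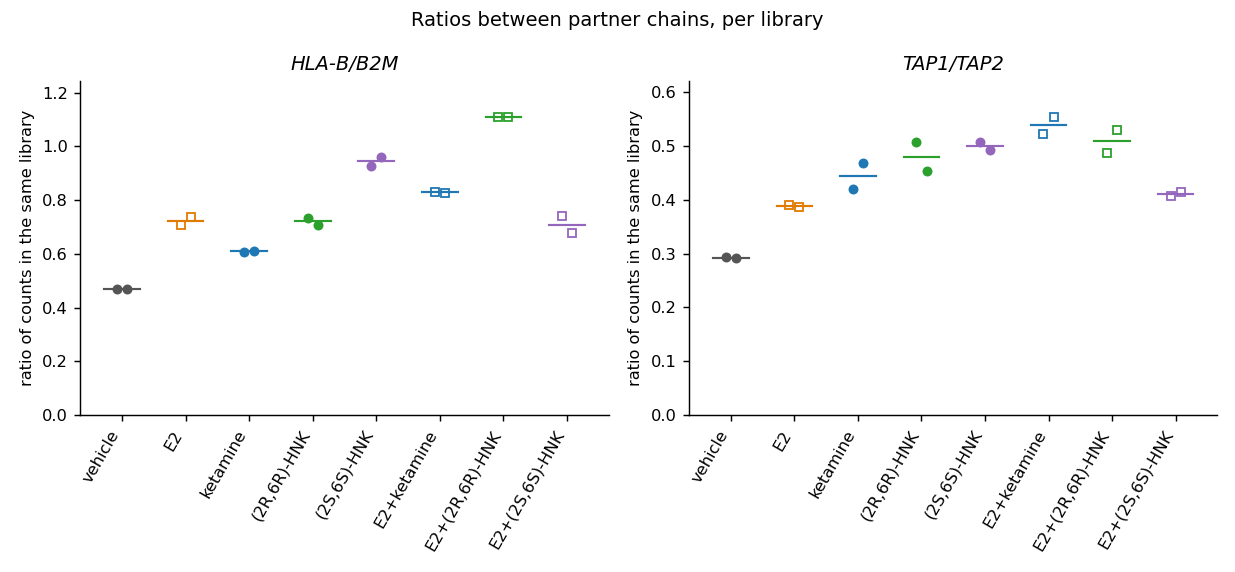
The y axis is the ratio of counts of 2 genes in the same library, HLA-B over B2M on the left and TAP1 over TAP2 on the right, and the x axis gives the 8 conditions; points are libraries and bars are means. In uncorrected counts HLA-B over B2M rises from 0.468 and 0.469 with vehicle to 1.11 with E2 plus (2R,6R)-HNK, and TAP1 over TAP2 from 0.292 and 0.293 to 0.523 and 0.554 with E2 plus ketamine.

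TAP1, a subunit of the peptide transporter, had 19.03 and 18.41 CPM with vehicle. It reached 42.81 and 46.33 CPM with E2 plus ketamine, a 2.38-fold rise (log2 1.25 ± 0.06 SE). The other treatments gave 25.32 to 35.78 CPM, and the conditions from ketamine up to E2 plus (2R,6R)-HNK overlapped their neighbours in rank. Corrected for GC and length, the rises ran from 0.29 with E2 to 0.92 with E2 plus ketamine on the log2 scale, and all 7 passed the test.

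TAP2, the other subunit, had 64.96 and 63.05 CPM with vehicle and 61.19 to 68.87 CPM in all treated libraries except those with E2 plus ketamine, which had 81.81 and 83.67 CPM. The rise there was 1.29-fold (log2 0.37 ± 0.04 SE). With E2 the log2 rise was 0.10 (adjusted p = 0.0276), and it missed the threshold without vehicle replicate 2 (0.07), E2 replicate 1 (0.09) or E2 replicate 2 (0.105). The corrected values of TAP2 were 0.73 with E2 plus ketamine and 0.08 to 0.32 elsewhere, so the condition with the highest level was the same. Counts of TAP1 per count of TAP2 were 0.293 and 0.292 with vehicle and 0.386 to 0.554 in the treated libraries, uncorrected for GC content. After the correction the log2 changes of both were 0.29 with E2, and with E2 plus ketamine they were 0.92 for TAP1 and 0.73 for TAP2. With the other 5 treatments TAP1 stood at 0.30 to 0.53 and TAP2 at 0.08 to 0.32. The difference between the genes was not tested.

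TAPBP, which bridges class I molecules and the transporter, had 90.56 and 95.43 CPM with vehicle. Its highest values were 160.4 and 160.2 CPM with E2 plus (2R,6R)-HNK, a 1.72-fold rise (log2 0.79 ± 0.03 SE). The other treated libraries had 127.1 to 156.7 CPM. After the correction the rises were 0.23 to 0.46 on the log2 scale.

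PSMB8, the immunoproteasome subunit, had 13.31 and 12.91 CPM with vehicle and 32.59 and 28.66 CPM with E2 plus ketamine, a 2.34-fold rise (log2 1.22 ± 0.07 SE). The other treated libraries had 19.03 to 25.95 CPM. Its counted rises of 0.56 to 1.22 on the log2 scale were 0.49 to 1.11 after the correction, and 0.37 to 0.84 by the canonical transcript. PSMB8 and TAP1, neighbours on chromosome 6, thus both stood highest with E2 plus ketamine, while HLA-B, HLA-C and TAPBP stood highest with E2 plus (2R,6R)-HNK.

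Over the 16 libraries, Pearson's r of log2 CPM was 0.968 for HLA-B with HLA-C and 0.952 for TAP1 with PSMB8. Exons of TAP1 and of PSMB8 both overlap PSMB8-AS1, and the part of its reads in their likeness was not tested. HLA-B with TAP1 gave 0.596, and B2M with the other members gave -0.415 to 0.301. The genes outside the list whose pattern was most like HLA-B, among 10366 genes with at least 5 CPM on average, were LEPREL4 (r = 0.989), EVL (0.989) and GAA (0.987). Those most like TAP1 were UBXN6 (0.979), MPND (0.977) and NUDT14 (0.976), and those most like B2M were GPR137C (0.944), TPT1 (0.926) and MTHFD2 (0.913). The 16 points share 8 conditions and their GC trends, and these values are descriptions.

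The second comparison asked what each drug did in cells that all received E2. Beside E2, ketamine raised 8 members and lowered none, with HLA-F not called. Of the 16004 genes tested 50.3% changed, 3969 upward and 4082 downward. TAP1 rose by 0.75 and PSMB8 by 0.66 on the log2 scale, and TAPBP by 0.09, a value that missed the threshold without either E2 library or replicate 2 of E2 plus ketamine (0.05 to 0.09) and stood at -0.02 after the correction (adjusted p = 0.56). (2R,6R)-HNK raised 7 and lowered none, led by HLA-B at 0.88 and HLA-C at 0.64. Here 50.5% of all genes changed, 4019 upward and 4063 downward. (2S,6S)-HNK raised 3, namely B2M (0.55), HLA-B (0.52) and HLA-C (0.33), lowered TAP2 by 0.14, and left 5 not called (55.1% of all genes changed). Of these 5, HLA-E was higher after the correction (0.14, adjusted p = 1.79e-07). By the canonical transcript HLA-E (0.13, adjusted p = 2.01e-06), TAPBP (0.08, adjusted p = 0.0107) and HLA-F (0.77, adjusted p = 0.047) were higher. B2M, the lowest with E2 alone, was thus higher with each drug added, by 0.24 to 0.55, and by 0.32 to 0.40 after the correction.

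The third comparison set the drugs against each other at 400 nM, in 6 comparisons. (2R,6R)-HNK and (2S,6S)-HNK are mirror images, with opposite configuration at both carbons named. Without E2, (2S,6S)-HNK gave higher levels of 6 members and lower levels of none (43.5% of all genes differed, 3591 higher and 3368 lower). The log2 difference was 0.57 for HLA-B (95% interval 0.51 to 0.62), 0.38 for HLA-C (0.31 to 0.45) and 0.23 for HLA-E (0.18 to 0.29). It was 1.03 for HLA-F (0.36 to 1.71), 0.21 for TAPBP (0.15 to 0.28) and 0.18 for B2M (0.12 to 0.24). TAP1, TAP2 and PSMB8 missed the threshold, with differences of 0.01 (-0.11 to 0.13), -0.04 (-0.12 to 0.03) and 0.08 (-0.04 to 0.21). The heavy chains and their direct partners differed between enantiomers, and for the transporter and PSMB8 differences above 0.21 in size lay outside the intervals. After the correction HLA-B differed by 0.55 and B2M by 0.18, and TAP2 passed the test at -0.11. The HLA-F difference missed the threshold without replicate 1 of (2R,6R)-HNK (0.79, adjusted p = 0.133) or replicate 2 of (2S,6S)-HNK (0.97, adjusted p = 0.0525).

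In the presence of E2 the order of the enantiomers was the opposite for 4 members, HLA-B, HLA-C, HLA-E and TAPBP, which passed the test in both comparisons; B2M was higher with (2S,6S)-HNK in both. (2S,6S)-HNK gave lower levels of 6 members, by 0.36 for HLA-B (95% interval -0.41 to -0.30), 0.31 for HLA-C (-0.38 to -0.24) and 0.27 for HLA-E (-0.33 to -0.22). For TAP1 the log2 difference was -0.39 (-0.51 to -0.27), for TAPBP -0.31 (-0.38 to -0.25) and for PSMB8 -0.31 (-0.43 to -0.18). B2M was higher, by 0.29 (0.24 to 0.35), and 54% of all genes differed. HLA-F and TAP2 missed the threshold, at 0.06 (-0.56 to 0.68) and -0.07 (-0.15 to 0.00). After the GC and length correction the difference was -0.19 for HLA-B, -0.07 for HLA-E (adjusted p = 0.0132), -0.13 for TAPBP, -0.23 for TAP1 and -0.24 for PSMB8. HLA-C (-0.07) and B2M (0.05) no longer passed the test after it, and TAP2 (-0.15) did. By the canonical transcript HLA-C passed (-0.08, adjusted p = 0.0327) and TAP2 did not (-0.05, adjusted p = 0.368).

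**Figure D4:**
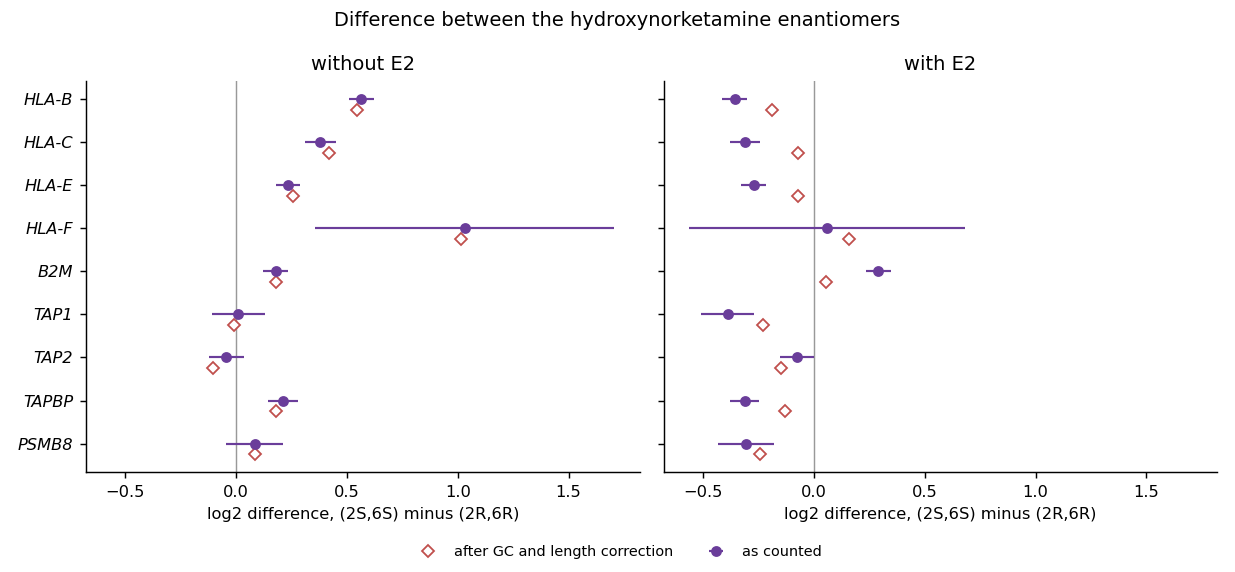
The x axis is the log2 difference of (2S,6S)-HNK minus (2R,6R)-HNK at 400 nM, without E2 on the left and with E2 on the right, for the 9 genes on the y axis; purple points have 95% intervals from the fit and red diamonds are after the GC and length correction. HLA-B is at 0.57 without E2 and at -0.36 with E2, and on the right the diamonds lie nearer to 0 than the points except for HLA-F and TAP2.

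Against ketamine, (2R,6R)-HNK differed in 3 members (45.4% of all genes differed): HLA-E by 0.10, HLA-B by 0.07 and B2M by -0.17 on the log2 scale. (2S,6S)-HNK was higher than ketamine in 5 and lower in none, where 46.1% of all genes differed (3869 higher and 3513 lower). The differences were 0.64 for HLA-B, 0.43 for HLA-C, 0.33 for HLA-E, 0.18 for TAPBP and 0.16 for PSMB8. B2M, at 0.004 as counted (adjusted p = 0.916), was higher by 0.12 after the correction (adjusted p = 7.53e-06). By the canonical transcript B2M stood at 0.11 (adjusted p = 3.03e-05). The PSMB8 difference missed the threshold without either ketamine library or replicate 2 of (2S,6S)-HNK (0.10 to 0.17) and after the correction (0.14, adjusted p = 0.0547). For HLA-B the 95% interval between ketamine and (2R,6R)-HNK was 0.01 to 0.13, and the corrected difference was 0.01 (adjusted p = 0.803). That of HLA-E was -0.03 (adjusted p = 0.373), and that of B2M was -0.06 (adjusted p = 0.029). HLA-C (-0.12, adjusted p = 0.00161) and TAP2 (0.14, adjusted p = 0.00111), not called as counted, passed the test after the correction with signs turned. Both also passed by the canonical transcript, as did HLA-B at -0.09 (adjusted p = 0.00209) and TAPBP at -0.10 (adjusted p = 0.00117). As counted, the HLA-B difference missed the threshold without either ketamine library or replicate 1 of (2R,6R)-HNK (0.05 to 0.07).

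With E2 present, (2R,6R)-HNK was higher than ketamine in 3 members and lower in 3 (52% of all genes differed). HLA-B (0.44), HLA-C (0.24) and TAPBP (0.19) were higher, and TAP1 (-0.42), PSMB8 (-0.36) and TAP2 (-0.34) were lower. After the correction the values were 0.48, 0.40 and 0.21 for the first 3 and -0.39, -0.36 and -0.50 for the last 3, and HLA-E (0.10, adjusted p = 0.00018) and B2M (-0.07, adjusted p = 0.00819) also passed the test, though not by the canonical transcript (adjusted p = 0.139 and 0.936). (2S,6S)-HNK with E2 was lower than ketamine with E2 in 5 members and higher in 2 (66.8% of all genes differed). TAP1 differed by -0.81, PSMB8 by -0.66 and TAP2 by -0.41, while HLA-B was higher by 0.08, and B2M by 0.31. The small values for HLA-B and for TAPBP (-0.12) missed the threshold without replicate 2 of E2 plus ketamine (0.07 and -0.09), and that for HLA-B also without replicate 1 of E2 plus (2S,6S)-HNK (0.07). After the correction TAP1, PSMB8 and TAP2 stood at -0.62, -0.60 and -0.65, whereas B2M stood at -0.02 (adjusted p = 0.563). HLA-B stood at 0.29, and at 0.44 by the canonical transcript. HLA-E moved from -0.29 to 0.03 (adjusted p = 0.299), TAPBP turned to 0.08, and HLA-C, at -0.07 as counted (adjusted p = 0.0662), turned to 0.33 (adjusted p = 6.33e-14). By the canonical transcript HLA-E was still lower, at -0.06 (adjusted p = 0.0211), and B2M was lower, at -0.05 (adjusted p = 0.0492).

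The last comparison was the interaction, in which what a drug changed without E2 is subtracted from what it changed with E2. Ketamine had 4 members past the threshold (37.5% of all genes), (2R,6R)-HNK had 6 (56.6%), and 8 passed for (2S,6S)-HNK (65.1%). For (2S,6S)-HNK the values were -0.94 for PSMB8, -0.83 for TAP1, -0.74 for TAPBP, -0.64 for HLA-C, -0.62 for HLA-E, -0.50 for HLA-B, -0.14 for TAP2 and 0.54 for B2M. Its rise over vehicle and its rise over E2 show this: PSMB8 stood at 24.2 and 25.95 CPM with the drug alone, and at 19.03 and 19.66 CPM with E2 added, beside 19.67 and 19.09 CPM with E2 alone. Corrected for GC and length, PSMB8 stood at -0.82 and TAP1 at -0.49, HLA-C at -0.06 (adjusted p = 0.364) and B2M at -0.08. HLA-B stood at -0.14 (0.02 by the canonical transcript, adjusted p = 0.763), HLA-E at -0.145, TAPBP at -0.36 and TAP2 at -0.42. The counted TAP2 value missed the threshold without vehicle replicate 2, E2 replicate 1, or replicate 2 of (2S,6S)-HNK with or without E2 (-0.13 to -0.11).

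For (2R,6R)-HNK the interaction had another pattern. HLA-B rose more in the presence of E2 (0.42, and 0.60 after the correction), whereas PSMB8 (-0.55, and -0.49) and TAP1 (-0.43, and -0.27) rose less. B2M gave 0.42 and TAPBP -0.21, which became 0.05 (adjusted p = 0.239) and -0.05 (adjusted p = 0.308) after the correction, and HLA-E turned from -0.11 to 0.18. HLA-C moved from 0.05 (adjusted p = 0.455) to 0.435 (adjusted p = 6.7e-12) and TAP2 from -0.11 (adjusted p = 0.0878) to -0.38 (adjusted p = 3.54e-09). By the canonical transcript the TAP1 value was -0.16 and missed the threshold (adjusted p = 0.105). For ketamine the largest interaction that passed the test was -0.43 for TAPBP (-0.32 after the correction), and TAP2 gave 0.20 (0.26 after it). B2M gave 0.23 and HLA-C -0.14, and neither passed the test after the correction (0.06, adjusted p = 0.159, and -0.09, adjusted p = 0.152). By the canonical transcript HLA-C passed at -0.12 (adjusted p = 0.0458), and B2M passed with its sign turned, at -0.10 (adjusted p = 0.01). HLA-B moved from 0.05 (adjusted p = 0.392) to 0.125 (adjusted p = 0.00339), and by the canonical transcript to 0.07 (adjusted p = 0.127). The counted values of -0.14 for HLA-C with ketamine and -0.11 for HLA-E with (2R,6R)-HNK each missed the threshold when 1 library was left out: replicate 1 of vehicle, replicate 2 of E2 or replicate 1 of ketamine for HLA-C (-0.14 to -0.12), and replicate 2 of E2 or replicate 1 of E2 plus (2R,6R)-HNK for HLA-E (-0.10 to -0.09).

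Other genes of the pathway were taken from lists written from general knowledge. Their counts are read against the 24% to 34.3% of all genes that rose and the 32.5% to 37.4% that fell with a treatment. Of the 4 genes for immunoproteasome subunits and the PA28 activator, PSMB9, which sits beside TAP1, rose with all 7 treatments, by 0.33 with E2 to 1.44 with E2 plus ketamine on the log2 scale, and by 0.43 to 1.58 after the correction. PSMB10 rose with 4 treatments, most with E2 plus ketamine (0.63), where its corrected value was -0.07; in the other 3 the corrected value was a fall that passed the test (-0.17 with E2, -0.15 with ketamine, -0.25 with (2R,6R)-HNK). PSME1 rose with 6 treatments, of which 3 passed the test after the correction (-0.22 to 0.26 over all 7). PSME2 rose with 2 and fell with 1, and its corrected values were -0.28 to 0.03. Of the 3 standard catalytic subunits, PSMB5, PSMB6 and PSMB7, all 3 fell with ketamine and with E2 plus (2S,6S)-HNK, by 0.13 to 0.32 on the log2 scale, and all 3 rose with (2R,6R)-HNK, by 0.11 to 0.23. After the correction both sets of falls held (by 0.21 to 0.32), but with (2R,6R)-HNK PSMB5 (0.02, adjusted p = 0.475) and PSMB6 (0.03, adjusted p = 0.396) missed the threshold. Counts of PSMB8 per count of PSMB5, the subunit it replaces, were 0.0652 and 0.0638 with vehicle and 0.0891 to 0.141 in the treated libraries.

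Of the 6 genes for peptide loading and trimming, 2 to 4 fell and 0 to 2 rose with any treatment, and 2 of 6 is near the share of all genes that fell. CANX, which folds new heavy chains, fell with all 7 by 0.49 to 0.86, and by 0.29 to 0.56 after the correction. PDIA3, a partner of CALR in the loading complex, fell with all 7 by 0.24 to 0.45, with corrected values of -0.09 to 0.06. CALR rose with 4 treatments, by up to 0.39 with E2 plus ketamine, and its corrected values were -0.27 to -0.05. ERAP1, which trims peptides, fell with 6 treatments and stood at 0.04 to 0.38 after the correction.

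Among 12 regulators of class I genes, 3 to 5 rose and 4 to 6 fell with each treatment, shares near or above those of all genes. NLRC5, the class I transactivator, rose with all 7, from 0.35 with E2 plus (2S,6S)-HNK to 1.65 with E2 plus ketamine. Its corrected values, 0.17 to 1.23, no longer passed the test with (2S,6S)-HNK or with E2 plus (2S,6S)-HNK. IRF1 rose with E2 (0.52), ketamine (0.27), (2R,6R)-HNK (0.61) and E2 plus ketamine (0.78). It fell with (2S,6S)-HNK (-0.17), E2 plus (2R,6R)-HNK (-0.30) and E2 plus (2S,6S)-HNK (-0.62), and these signs held after the correction, where the value for ketamine missed the threshold. IRF1 was below vehicle in the 2 conditions in which HLA-B stood highest. Its largest rise was with E2 plus ketamine, where TAP1 and PSMB8 stood highest. The relation of IRF1 to the members was not tested. RELA, the NF-kB subunit, rose with all 7 by 0.18 to 0.79, and its corrected values were -0.06 to 0.23. RFX5, which binds class I and class II promoters, fell with E2 plus ketamine (-0.16), and after the correction with 5 treatments (by 0.10 to 0.22). NFYC, a subunit of the CCAAT-binding factor, fell with 4 treatments, by 0.19 to 0.54, and its corrected values were -0.62 to -0.07.

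Of 7 class I-like chains 6 were tested, 3 to 5 rose and none fell with any treatment before the correction. FCGRT, the neonatal Fc receptor, also a partner of B2M, rose with all 7 by 0.41 to 0.94, and its corrected values were 0.03 (with E2, adjusted p = 0.653) to 0.44. MICB, a stress ligand for natural killer cells that does not bind B2M, rose with all 7 by 0.14 to 0.63, and its corrected values were 0.03 (with ketamine, adjusted p = 0.385) to 0.50. MICA, a ligand of the same kind, rose with 6 treatments, but after the correction it fell with E2 (-0.16) and ketamine (-0.28) and rose with 3. HFE, which regulates iron uptake, rose with ketamine (0.23), and with 6 treatments after the correction (0.39 to 0.46). Of 8 class II genes 6 were tested and 2 or 3 rose, near or above the share of all genes that rose. HLA-DMA, which helps load class II, rose with all 7 by 0.46 to 1.31, and by 0.28 to 1.07 after the correction. HLA-DPB1 rose with 3 treatments and HLA-DMB with 3, each with 4 after the correction. HLA-DPA1 passed the test with none (-0.08 to 0.22), and with ketamine (0.41) and E2 plus ketamine (0.64) after the correction. HLA-DRA, chosen after its values were seen, is the main class II alpha chain and had 0 to 4 counts.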

How the data were processed

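RNA-seq was run on 16 libraries of HMC3 cells (NuGEN Ovation). The authors deposited a table of raw counts for 25370 genes: pairs were aligned to UCSC hg19 and counted with featureCounts 1.4.6, and the submitters' processing notes name TopHat2 2.0.14 and Bowtie2 2.2.6. Whether strand was used is not given in the sources used here. Conditions were taken from the labels, and the deposited counts were analysed in R 4.3.3.

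Genes with low counts were removed with filterByExpr (16004 left). All 16 libraries were fitted together, 1 term per condition, with TMM scaling and the quasi-likelihood test of edgeR 4.0.16 (8 residual degrees of freedom), with Benjamini-Hochberg adjustment over all genes in each comparison and a threshold of 0.05. The SE of a log2 fold change was derived from the F statistic. The totals of 55300614 to 81646165 counts and a common coefficient of variation of 2.81% set the precision. With 2 libraries against 2, no permutation test can pass this threshold.

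GC content and exon length were read from the annotation on GRCh37 for 95.9% of the genes tested, and a loess curve (span 0.5) per library gave the correction. The alternatives were DESeq2 1.42.0, RLE and upper-quartile scaling, both filters, only the groups compared, the replicate block, counts halved or thinned, and each library left out. GC content from the canonical transcript was added after seeing the data. Simulated counts for ketamine against vehicle with 200 of 16004 genes changed by 1.5 on the log2 scale were tested first: 93% were recovered, with 11 false calls. In the data far more genes were called for this comparison (26.8% higher and 32.5% lower), and most changes of the members were smaller. The simulation also held no trend with GC content, so its rates do not carry over to the calls reported.

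The members and lists were chosen with earlier results of these data known. All members are named, and of each other list the genes with the highest mean CPM, at most 4, plus NLRC5 and IRF1; 1 gene that this rule names is not reported here. For likeness, log2 CPM used a prior count of 2.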

Additional observations from a re-analysis of the deposited data

Results flagged for a closer look

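Several effects of a drug differed between cells with and without E2, by the interaction term of the edgeR fit (log2, effect with E2 minus effect without it; adjusted p under 0.05 in each case). The report gives the levels behind them.

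For ketamine the values were 0.23 for B2M, -0.14 for HLA-C, 0.20 for TAP2 and -0.43 for TAPBP. For (2R,6R)-HNK they were 0.42 for B2M, 0.42 for HLA-B, -0.11 for HLA-E, -0.55 for PSMB8, -0.43 for TAP1 and -0.21 for TAPBP. For (2S,6S)-HNK they were 0.54 for B2M, -0.62 for HLA-E, -0.64 for HLA-C, -0.50 for HLA-B, -0.14 for TAP2, -0.94 for PSMB8, -0.83 for TAP1 and -0.74 for TAPBP. After the GC and length correction the values for B2M and HLA-C with ketamine, for B2M and TAPBP with (2R,6R)-HNK and for HLA-C with (2S,6S)-HNK no longer passed the test, and those for HLA-E with (2R,6R)-HNK and B2M with (2S,6S)-HNK changed sign. By the canonical transcript both of these ketamine values passed, that for B2M with its sign turned. Groups of 2 libraries were not tested for single libraries that stand apart.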

How the results depend on the processing

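Of the 171 log2 values (9 members in 19 comparisons), none reversed under the 9 settings without GC correction, and 27 of 1539 recomputed values had another call. With 1 library left out, 36 of 792 had another call and none reversed. A reversal counts only where the value passes the threshold before or after. The replicate numbers did not pair the samples (correlations of replicate differences from -0.0258 to 0.0451 over 28 pairs of conditions), and the replicate block left the number of members called the same in all 19 comparisons, 8 with E2.

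The GC and length correction reversed 18 values, made 13 weaker and 12 stronger; the cause was not tested. With it, and also together with the replicate block, 4 members were called with E2 in place of 8 (38.1% of all genes with the correction). With the canonical transcript, 7 members in place of 4 were called for E2 plus (2S,6S)-HNK against E2 (51.6% of all genes, 55.1% as counted), and 5 in place of 3 for (2R,6R)-HNK against ketamine (37.7%, and 45.4% as counted); 20 values reversed.

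Reversed values follow, for all exons and then for the canonical transcript; adding the replicate block gave the same digits except where named. B2M against vehicle was 0.035 and 0.16 with E2, 0.28 and 0.37 with (2R,6R)-HNK, 0.43 and 0.52 with E2 plus ketamine, and 0.36 and 0.52 with E2 plus (2R,6R)-HNK. B2M was -0.071 (all exons) for E2 plus (2R,6R)-HNK against E2 plus ketamine, -0.017 and -0.050 for E2 plus (2S,6S)-HNK against E2 plus ketamine, and -0.047 (canonical) for E2 plus (2S,6S)-HNK against E2 plus (2R,6R)-HNK. The interaction for B2M was -0.080 and -0.26 with (2S,6S)-HNK, and by the canonical transcript -0.099 with ketamine and -0.011 with (2R,6R)-HNK. HLA-B by the canonical transcript was -0.076 with E2, -0.089 for (2R,6R)-HNK against ketamine and 0.016 for the interaction of (2S,6S)-HNK. HLA-C was -0.0056 with E2 (all exons), -0.12 and -0.12 for (2R,6R)-HNK against ketamine, and 0.33 and 0.31 for E2 plus (2S,6S)-HNK against E2 plus ketamine. HLA-E was, by all exons, -0.027 for (2R,6R)-HNK against ketamine, 0.097 for E2 plus (2R,6R)-HNK and 0.028 for E2 plus (2S,6S)-HNK against E2 plus ketamine, and its interaction with (2R,6R)-HNK was 0.18 and 0.095. TAP2 was 0.21 with (2S,6S)-HNK (all exons), and 0.14 and 0.086 for (2R,6R)-HNK against ketamine. TAPBP was -0.024 and -0.074 for E2 plus ketamine against E2, 0.075 (0.0755 with the block) and 0.16 for E2 plus (2S,6S)-HNK against E2 plus ketamine, and by the canonical transcript 0.081 for E2 plus (2S,6S)-HNK against E2 and 0.032 for the interaction of (2R,6R)-HNK.

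Upper-quartile scaling moved the share of higher among called genes from 45.2% to 55.6% with ketamine, from 40.2% to 54.3% with E2 plus (2S,6S)-HNK and from 65.2% to 46.9% for the interaction of ketamine. The GC and length correction moved it from 49.7% to 62.1% for (2R,6R)-HNK against ketamine. Depth limits HLA-F, at 13 to 80 counts.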
